A study of Mus musculus with 7 samples.

Results

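The nuclear genes for the subunits of oxidative phosphorylation were followed through ChrRNA-seq libraries of mouse embryonic stem (mES) cells treated with STM2457, an inhibitor of METTL3, the enzyme that writes m6A on RNA. Genes outside chromosome X were taken whose symbol begins with Ndufa, Ndufb, Ndufc, Ndufs or Ndufv (complex I), Uqcr (complex III), Cox4 to Cox8 (complex IV) or Atp5 (complex V, the ATP synthase), with the Ndufaf assembly factors left out. This gave 78 of the 22556 genes in the table, with 36 in complex I, 8 in complex III, 17 in complex IV and 17 in complex V, spread over 18 chromosomes. Membership by symbol kept Ndufa4, which is named for complex I and also assigned to complex IV, and Atp5s and Atp5sl, which are not structural subunits of the ATP synthase.

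The cells were C7H8, a single XX mES clone from a Cast by 129S cross in which a doxycycline (Dox)-inducible promoter drives Xist on the Cast chromosome, grown on inactivated fibroblast feeders. The DMSO group had 3 libraries, the 10 µM STM2457 group had 2, and 20 µM and 30 µM had 1 each. All 7 cultures had DMSO or inhibitor for 6 h, and then also Dox at 1 µg/mL for 24 h, so that every control also carried induced Xist. Chromatin-associated RNA was sequenced, which enriches for transcripts still being made, and read pairs were counted over exons and introns, so that the values describe RNA at the gene and not the mature mRNA or the protein.

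Oxidative phosphorylation passes electrons from NADH through complexes I, III and IV to oxygen and uses the proton gradient so formed to drive the ATP synthase. Most of its subunits are encoded in the nucleus and must match the few that mitochondria encode themselves. Many of the nuclear genes are widely expressed and carry promoter sites for the factors NRF1, GABP (an ETS factor) and YY1, while a few complex IV and complex I subunits have tissue-restricted paralogues.

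The libraries held 9300549 (20 µM) to 28030180 read pairs on genes, and the 78 genes took between 0.179% (DMSO replicate 3) and 0.233% (10 µM replicate 2) of them. The libraries fell into 2 sets. The sign of principal component 1 over autosomal genes outside the 78 put DMSO replicates 1 and 2 and both 10 µM libraries in set 1, and DMSO replicate 3 with the 20 µM and 30 µM libraries in set 2. Dose and library set are therefore partly confounded, and no 10 µM library fell in set 2. The 20 µM library also stood apart, as Lars2, Cmss1, Gphn, Cdk8 and Camk1d together took 8.92% of its read pairs against 0.212% to 1.16% in the others. Of 10 mES cell markers, 9 were expressed, among them Esrrb at 545 to 794 RPM (read pairs on a gene, scaled by the authors to a fixed library total) and Zfp42 at 528 to 650 RPM, and 4 of the 9 (Dppa5a, Klf4, Tdgf1 and Tfcp2l1) were lower in set 2 without overlap, where 39.8% of all genes tested were. Dppa5a had 26.3 to 37.2 RPM in set 1 and 4.71 to 9.89 RPM in set 2. Sox2 was listed at 0 in every library. It lies within Sox2ot on the same strand, where the assignment of reads is ambiguous, so this 0 does not show that Sox2 was silent. Of 12 fibroblast markers, Fn1 (423 to 1148 RPM) and Sparc (17.3 to 79.4 RPM) were prominent, while Col1a1 stayed at or below 0.860 RPM. The summed level of the 12, most of it Fn1, was 901 to 1170 RPM in set 1 and 508 to 650 RPM in set 2. The list did not move one way, as Fn1 was lower in set 2 without overlap and Sparc was higher (42.1 to 79.4 RPM against 17.3 to 25.6 RPM in set 1).

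Of the 78 genes, 73 averaged 1 RPM or more across libraries, and these were tested together with the 13599 genes in all that did. The 5 that did not were all tissue-restricted forms of complex IV subunits. Cox8b, a muscle form, was listed at 0 in every library. Cox6a2, also a muscle form, reached 0.118 RPM at most. Cox8c, a testis form, reached 0.323 RPM. Cox7a1, a heart and muscle form, ranged from 0.279 to 0.788 RPM. Cox4i2, a form linked to low oxygen, had 1.10 and 0.999 RPM in DMSO replicates 1 and 2 and 0.0466 RPM in DMSO replicate 3.

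Per kb of counted length, the scale on which genes can be compared, the tested genes had a median level of 2.22 RPM per kb, against 1.08 RPM per kb over all genes tested, and 66 of the 73 were above that second value. Their genes were short, with a median counted length of 7.08 kb against 25.5 kb. Complexes IV and V had the higher median levels, 3.53 and 3.32 RPM per kb, and complexes III and I the lower, 2.64 and 1.76 RPM per kb. Of the 72 pairs of neighbours in the order of levels, 71 overlapped in their ranges over libraries.

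**Figure D1:**
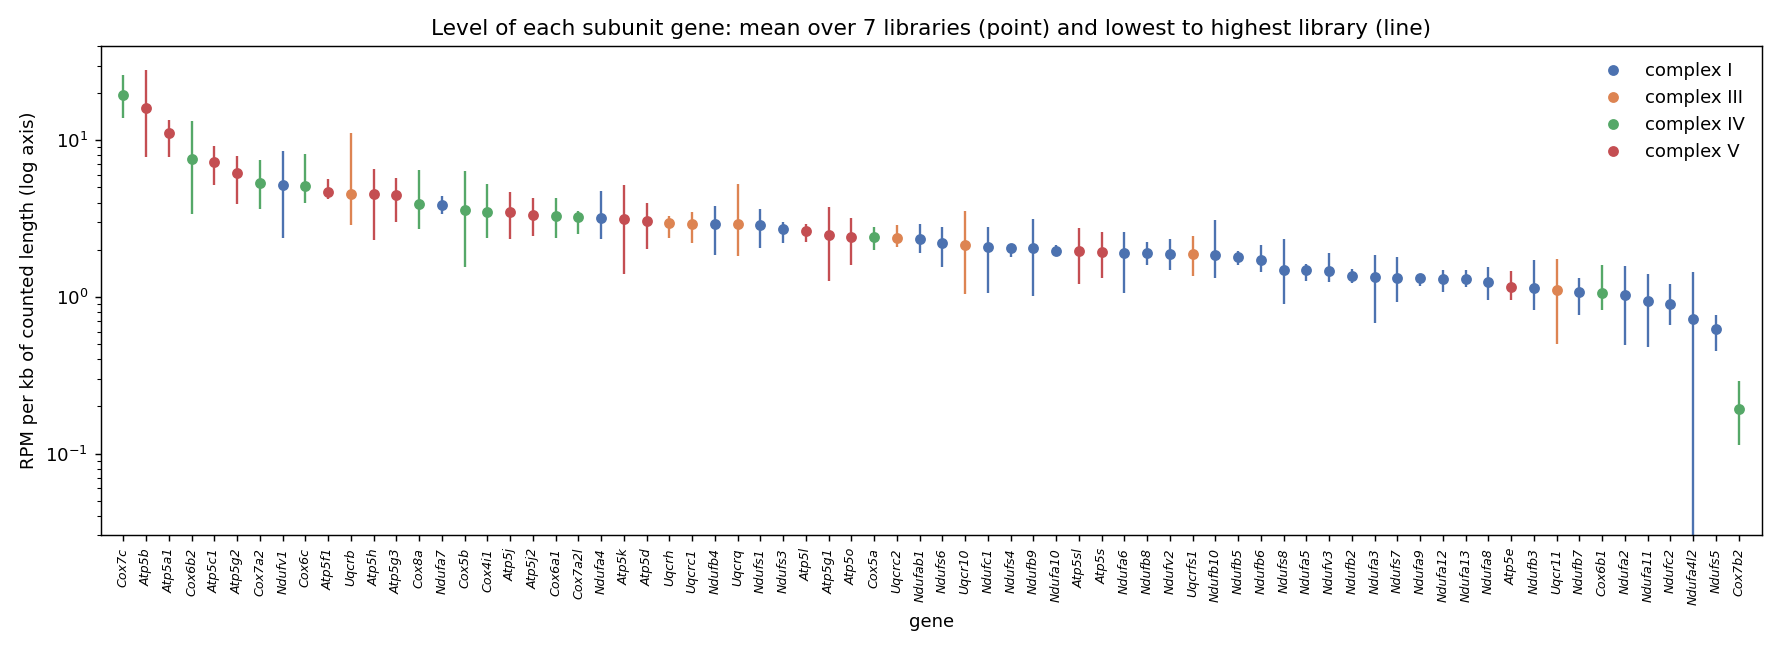
Level of 72 of the 73 tested subunit genes on a log axis, in RPM per kb of counted length, coloured by complex, with the mean over 7 libraries as a point and a line from the lowest to the highest library. Cox7c and Atp5b lead at 19.5 and 16.2 RPM per kb and Cox7b2 is lowest at 0.191; the line of Ndufa4l2 is cut at the lower edge because it reached 0 in DMSO replicate 3.

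Cox7c, a small structural subunit of complex IV, had the highest level, with 17.1, 18.8 and 16.1 RPM per kb in DMSO replicates 1 to 3, 20.3 and 26.1 at 10 µM, and 24.5 and 13.9 in the 20 µM and 30 µM libraries. Atp5b, the catalytic beta subunit of the ATP synthase, followed with 16.7, 20.2 and 7.85 RPM per kb in DMSO, 17.6 and 28.0 at 10 µM, and 14.6 and 8.36 in the 20 µM and 30 µM libraries. The ranges of these 2 genes overlapped. At the other end, Cox7b2, a testis form of a complex IV subunit whose gene spans 105 kb, had between 0.113 and 0.290 RPM per kb, and Ndufs5, an accessory subunit of complex I, had between 0.451 and 0.762 RPM per kb, the 1 pair of neighbours without overlap.

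Within paralogue sets other than Cox6b, the widely expressed form was the higher. Cox4i1 had a mean of 3.48 RPM per kb against 0.0659 for Cox4i2, Cox6a1 had 3.29 against 0.0366 for Cox6a2, and Cox7a2 and Cox7a2l (an assembly factor for supercomplexes) had 5.36 and 3.25 against 0.315 for Cox7a1. Cox8a had 3.91 RPM per kb, whereas Cox8c had 0.0900. Ndufa4 had 3.19 RPM per kb and its low-oxygen paralogue Ndufa4l2 had 0.721. Cox6b was the exception, as the testis form Cox6b2 had a mean of 7.56 RPM per kb and the common form Cox6b1 had 1.06. Cox6b2 lay between 3.38 and 13.3 RPM per kb in the 7 libraries, above Cox6b1 (0.825 to 1.60) in each of them. The 3 genes for the identical c subunit of the ATP synthase ring had 6.19 (Atp5g2), 4.48 (Atp5g3) and 2.47 (Atp5g1) RPM per kb.

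The promoters were examined for the letters of the factors named above. RefSeq promoter sequences (GRCm38.p6, from 250 bases before to 50 after the start) were matched for 64 of the 78 genes, and both strands were searched. For these genes the promoter nearest the listed gene start was taken, with synonyms allowed. The background took the first listed promoter of each gene, and the genes tested were matched by symbol only (10222 promoters). The 2 choices differ, so the shares are not strictly alike. The NRF1 palindrome, which is GC followed by GCATGCGC, was in 5 of the 64 (7.81%), against 0.977% of all 27025 promoters and 2.07% of those of the genes tested. Its shorter core GCATGCGC alone was in 9 (14.1%), against 2.80% and 5.57%. The ETS letters CCGGAAG were in 13 (20.3%), against 9.12% and 17.6%, and the YY1 letters AAGATGGCG were in 7 (10.9%), against 1.49% and 3.09%. The 5 windows with the palindrome are shown because they hold the NRF1 letters in full, which stand in capitals in 30 bases of the gene's own strand. They belong to Atp5g2, Atp5k (subunit e of the ATP synthase), Cox6a1, Ndufa11 and Uqcrc1 (a core subunit of complex III), and the letters began 42, 50, 162 and 60 bases before the start in the first 4 and at base 31 after it in Uqcrc1.
Atp5g2, chr15:102671070-102671099, minus strand: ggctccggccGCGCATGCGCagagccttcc
Atp5k, chr5:108434430-108434459, minus strand: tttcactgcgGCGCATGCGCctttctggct
Cox6a1, chr5:115349101-115349130, minus strand: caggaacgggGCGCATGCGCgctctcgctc
Ndufa11, chr17:56717692-56717721, plus strand: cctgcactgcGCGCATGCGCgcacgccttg
Uqcrc1, chr9:108936668-108936697, plus strand: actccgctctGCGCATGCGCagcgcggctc

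The 7 windows with the YY1 letters are shown for their shared position. The letters (in capitals) began between base 23 and base 36 after the start in all 7, on the gene's own strand, and in each of the 7 the ATG within them stood at the position of a start codon in the GENCODE annotation.
Atp5j2, chr5:145191499-145191528, minus strand: ccaggacttcAAGATGGCGtcactcggtga
Atp5sl, chr7:25619430-25619459, plus strand: gttacctggcAAGATGGCGgcgcccagagc
Ndufa9, chr6:126849096-126849125, minus strand: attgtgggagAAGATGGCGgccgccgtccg
Ndufc1, chr3:51408914-51408943, minus strand: cctgcggaacAAGATGGCGccgtccgtagt
Ndufs4, chr13:114388045-114388074, minus strand: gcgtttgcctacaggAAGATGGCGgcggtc
Ndufs6, chr13:73328433-73328462, minus strand: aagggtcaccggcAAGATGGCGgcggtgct
Ndufs7, chr10:80249463-80249492, plus strand: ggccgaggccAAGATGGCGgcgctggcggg
Over the tested genes with a matched promoter, the medians at 10 µM were 0.04 (pair of replicates 1) and 0.24 (pair of replicates 2) on the log2 scale for the 9 with the NRF1 core and 0.03 and 0.18 for the 53 without. For the ETS letters they were 0.01 and 0.29 in the 13 with them and 0.04 and 0.17 in the 49 without, so that the order differed between the pairs. For the YY1 letters they were 0.07 and 0.16 in the 7 with them and 0.02 and 0.20 in the 55 without. These are descriptions of few genes and were not tested.

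The first comparison asked whether 10 µM STM2457 changed these genes against DMSO. Without regard to the pairing of cultures, the median difference of the 73 genes was 0.23 on the scale of log2(RPM + 1), against 0.09 over all genes tested, and 57 of the 73 were above 0. None of the 73 passed limma with Benjamini-Hochberg adjustment, as none of the 13599 genes did (0%). At an unadjusted p under 0.05 there were 0 of the 73 and 212 (1.56%) of all genes, edgeR called 0 of all genes, and DESeq2 called 1, outside the 73. Without DMSO replicate 3 the median of the 73 genes was 0.12 and that over all genes was 0.03.

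DMSO and 10 µM replicates with the same number came from the same batch of cells, so each 10 µM library was also compared with its own DMSO library. In the pair of replicates 1, 42 of the 73 genes were higher at 10 µM, where 46.8% of all genes were. Their median was 0.04, against -0.02 over all genes tested. In the pair of replicates 2, 64 were higher, where 62.7% of all genes were, with a median of 0.19, against 0.06. In both pairs alike 38 genes (52.1%) were higher, where 36.3% of all genes were, and 5 genes (Atp5s, Ndufa7, Ndufa9, Ndufb5 and Ndufv3) were lower, where 26.9% of all genes were. With TMM factors in place of the plain RPM the counts were 36 and 9, against 31.6% and 31.1% of all genes. All 8 complex III and all 12 tested complex IV genes were higher in the pair of replicates 2, where 62.7% of all genes were, and 6 and 8 of them in both pairs. With TMM factors 8 and 11 were higher in that pair, against 51.3% of all genes.

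**Figure D2:**
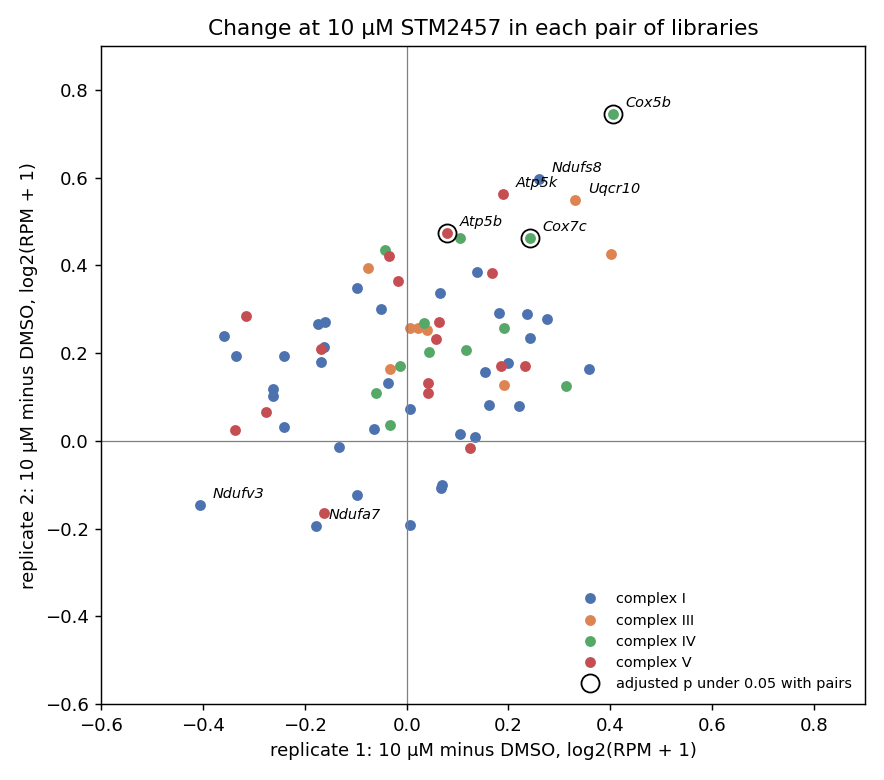
Difference between 10 µM STM2457 and DMSO, in log2(RPM + 1), in the pair of replicates 1 (horizontal) and of replicates 2 (vertical) for 73 subunit genes coloured by complex; open rings mark an adjusted p under 0.05 in the paired fit. Most points, 64 of 73, lie above 0 on the vertical axis, and the ringed Atp5b, Cox5b and Cox7c are higher in both pairs.

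With the replicate number as a block, limma called 3 of the 73 genes (4.11%), all higher at 10 µM, which was below the background of 7.5% of all genes called in either direction and like the 4.13% called higher. This fit rests on 4 libraries. Cox5b, a subunit of complex IV that binds zinc (chr1:36691486-36693388), had 5.50 and 6.81 RPM in DMSO replicates 1 and 2 and 7.61 and 12.1 RPM in the matching 10 µM libraries. Both treated libraries were above both controls, and the paired difference was 0.58 ± 0.17 (SE, log2 scale, limma adjusted p = 0.0126). Cox7c (chr13:86044797-86046795) had 34.2 and 37.6 RPM in DMSO and 40.6 and 52.2 RPM at 10 µM, again without overlap, a difference of 0.35 ± 0.10 (SE, limma adjusted p = 0.0103). Atp5b (chr10:128083306-128090388) had 118 and 143 RPM in DMSO and 125 and 199 RPM at 10 µM, so that the groups overlapped, with a paired difference of 0.28 ± 0.07 (SE, limma adjusted p = 0.00330). In DMSO replicate 3, which has no 10 µM partner, the 3 genes had 2.93, 32.1 and 55.6 RPM, the lowest of the DMSO values for each. The same 3 genes were called by edgeR on the read pairs with the block (7.54% of all genes). DESeq2 with the block called 1.12% of all genes and none of the 3 (adjusted p = 0.346 for Cox5b, 0.299 for Cox7c and 0.360 for Atp5b), and with TMM factors Atp5b was not called. Cox7c shares stretches of its transcript with 4 pseudogenes (16.8% of it). Fn1, from the fibroblast list, fell in the same fit, by 0.26 on the log2 scale (limma adjusted p = 0.00157), while of the other 3 tested genes of that list Sparc and Thy1 were at 0.20 and 0.13 and Pdgfrb at -0.09, none of them called, with a median of 0.02 over the 4. Their part in these values was not tested.

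The 120 bases before the RefSeq start of these 3 genes are shown because they were the genes called. None of the motifs searched was found in their 300-base windows, so no letter is in capitals.
Atp5b, chr10:128083187-128083306, plus strand: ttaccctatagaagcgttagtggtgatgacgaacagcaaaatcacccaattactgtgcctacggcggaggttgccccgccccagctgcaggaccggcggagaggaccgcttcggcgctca
Cox5b, chr1:36691367-36691486, plus strand: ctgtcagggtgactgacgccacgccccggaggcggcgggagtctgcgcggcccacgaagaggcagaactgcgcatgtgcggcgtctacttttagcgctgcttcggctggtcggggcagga
Cox7c, chr13:86046796-86046915, minus strand: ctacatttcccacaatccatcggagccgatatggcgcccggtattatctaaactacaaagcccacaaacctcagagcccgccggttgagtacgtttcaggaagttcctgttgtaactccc

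Among the genes not called, Uqcr10, a small complex III subunit, had one of the 2 largest paired rises, 0.44 ± 0.17 (SE, limma adjusted p = 0.0904), with 4.59 and 5.42 RPM in DMSO and 6.03 and 8.39 RPM at 10 µM. The lowest paired values were those of Ndufv3, an accessory subunit near the NADH site, at -0.28 ± 0.14 (SE, limma adjusted p = 0.232), and of Ndufa7, another accessory subunit of complex I, at -0.19 ± 0.09 (SE, limma adjusted p = 0.222). Ndufa7 had 54.2 and 53.7 RPM in DMSO and 47.8 and 46.8 RPM at 10 µM, without overlap. At an unadjusted p under 0.05 there were 11 of the 73 genes, 9 higher and 2 lower, where 20.4% of all genes were.

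Of the core and catalytic subunits, Atp5b was the 1 called in the paired fit. In complex I, Ndufs8, another core subunit with iron-sulfur clusters, named here after its value was seen, had the highest value, 0.43 ± 0.17 (SE, limma adjusted p = 0.0934). Ndufs1, which also carries such clusters, was at -0.09 and Ndufs7 at 0.13. The accessory subunits Ndufs4 and Ndufab1 (the acyl carrier protein) were both at -0.02. Ndufv1, the subunit that binds NADH, was at 0.20 ± 0.10 (SE, limma adjusted p = 0.245). In complex III, the core subunits Uqcrc1 and Uqcrc2 were at 0.07 and 0.16, and the Rieske iron-sulfur protein Uqcrfs1 at 0.14. In complex IV, whose catalytic core is encoded by mitochondria, the nuclear subunits Cox4i1 and Cox5a were at 0.02 and 0.12. In the ATP synthase, the alpha subunit Atp5a1 was at 0.14 and the delta subunit Atp5d at 0.17, while Atp5g1, Atp5g2 and Atp5g3 were at 0.27, 0.08 and -0.16.

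The second comparison asked whether the level followed the dose over all 7 libraries. The median slope of the 73 genes was -0.06 per 10 µM on the log2 scale, against -0.04 over all genes tested. None of the 73 and none of the 13599 genes (0%) was called by limma, with 1 of the 73 and 1174 (8.63%) of all genes at an unadjusted p under 0.05. edgeR called 0 genes, and DESeq2 called 129 of all genes (0.949%) and 0 of the 73. Cox7b2 was the 1 gene, with a slope of 0.36 ± 0.10 (SE, limma adjusted p = 0.508). It had 11.9, 18.5 and 15.7 RPM in DMSO, 15.0 and 20.3 RPM at 10 µM, 29.1 RPM at 20 µM (95% Wilson interval 25.9 to 32.8) and 30.6 RPM at 30 µM (28.4 to 32.9). The libraries at the 2 higher doses were above all 5 others, and within library sets its slope was 0.30 ± 0.09 (SE, limma adjusted p = 0.241). The intervals cover counting error only.

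**Figure D3:**
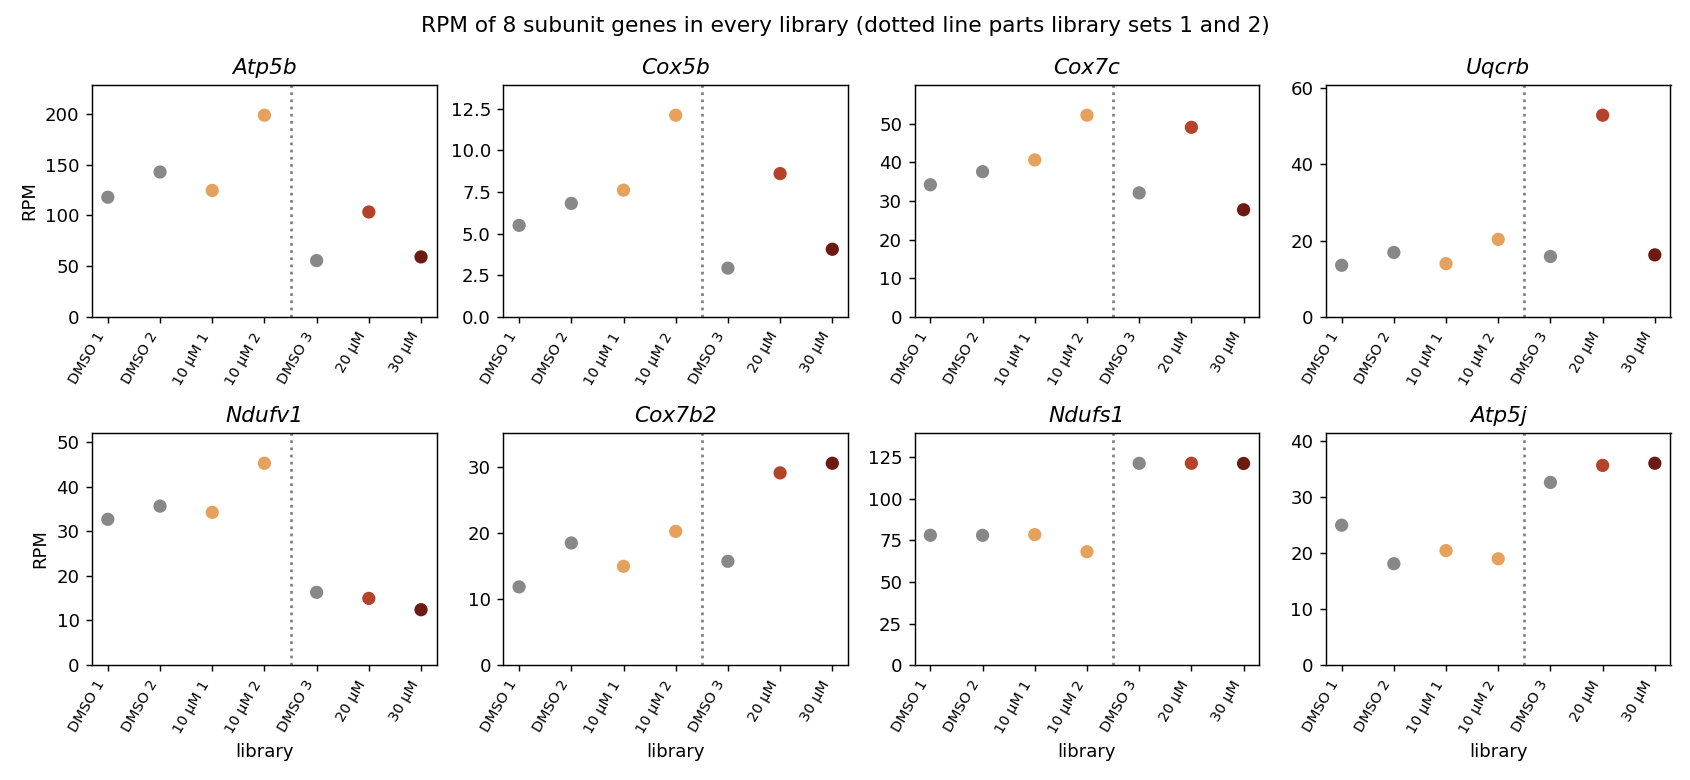
RPM of 8 subunit genes in each library, with DMSO in grey, 10 µM in orange and 20 µM and 30 µM in dark red; the dotted line parts library set 1 (left) from set 2 (right). Cox7b2 was near 30 RPM in both high-dose libraries, Uqcrb reached 52.9 RPM at 20 µM only, Ndufv1 was low throughout set 2, and Ndufs1 and Atp5j were high throughout set 2.

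Of the other steep slopes, that of Uqcrb, a small subunit of complex III, was 0.23 ± 0.19 (SE, limma adjusted p = 0.554). It was 0.03 without the 20 µM library, 0.71 without the 30 µM library and 0.13 with a term for the library set. The slopes of Ndufa4l2 and Ndufv1 were -0.36 ± 0.27 and -0.36 ± 0.18 (SE, limma adjusted p = 0.532 and 0.508). The 2 negative slopes followed the library sets. Ndufv1 (chr19:4007498-4012755) had 32.7 and 35.6 RPM in DMSO replicates 1 and 2, 34.2 and 45.2 RPM at 10 µM, and 16.3, 14.9 and 12.4 RPM in the libraries of set 2 (DMSO replicate 3, then 20 µM, then 30 µM). Ndufa4l2 had 2.06 and 2.75 RPM in DMSO replicates 1 and 2 and 2.92 and 3.20 RPM at 10 µM, and it had 0, 0.108 and 0.171 RPM in those of set 2. It passed the level filter only through set 1. With a term for the library set, the slope of Ndufv1 was -0.06 and that of Ndufa4l2 was 0.11, no gene of the 73 was called where 27 of all genes (0.199%) were, and the median slope of the 73 was 0.04. Without DMSO replicate 3, the only control in set 2, limma called 6 of the 73 (8.22%) and 18.3% of all genes. Of these, Cox7b2 had a positive slope (6.97% of all genes were called with one), and Atp5c1, Atp5g2, Ndufa4l2, Ndufc1 and Ndufv1 had negative slopes (11.3%).

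The difference between the library sets is given as a description, since the sets were found from the data. Set 2 lay below set 1 by a median of 0.31 on the log2 scale, against 0.20 over all genes tested. Without overlap, 33 of the 73 (45.2%) were lower in set 2, where 39.8% of all genes were, and 8 (11.0%) were higher, where 18.7% were. By counted length, the shares lower were 54.2% under 5 kb, 50% at 5 to 10 kb and 28.6% at 10 kb or more. For all genes of those lengths they were 61.0%, 52.1% and 35.0%. The medians were -0.60, -0.30 and -0.03, against -0.68, -0.43 and -0.11. Genes of like length thus lay at least as low in set 2 as the subunit genes. TMM factors moved the median of all genes to 0.00 and that of the 73 to -0.10, and gave 17 lower and 16 higher genes, against 29.2% and 30.1% of all genes. The sign of the set difference was the same under both scalings in 60 of the 73 genes and changed in 13. Ndufa4l2 is 1 of the 33 and passed the filter only through set 1, so it had to be lower. Of the others, the lowest in set 2 were Ndufv1, Cox6b2 and Atp5g1, by 1.28, 1.19 and 1.05, and the highest were Atp5j (coupling factor 6 of the ATP synthase), Ndufs1 and Ndufb3, by 0.73, 0.68 and 0.67. Ndufs1 had 78.0 and 78.0 RPM in DMSO replicates 1 and 2 and 78.4 and 68.1 RPM at 10 µM, and 121 RPM in each of the 3 libraries of set 2. Atp5j had 18.1 to 25.0 RPM in set 1 and 32.6 to 36.1 RPM in set 2. In bulk libraries, fewer cells of a type and less RNA per cell cannot be told apart.

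**Figure D4:**
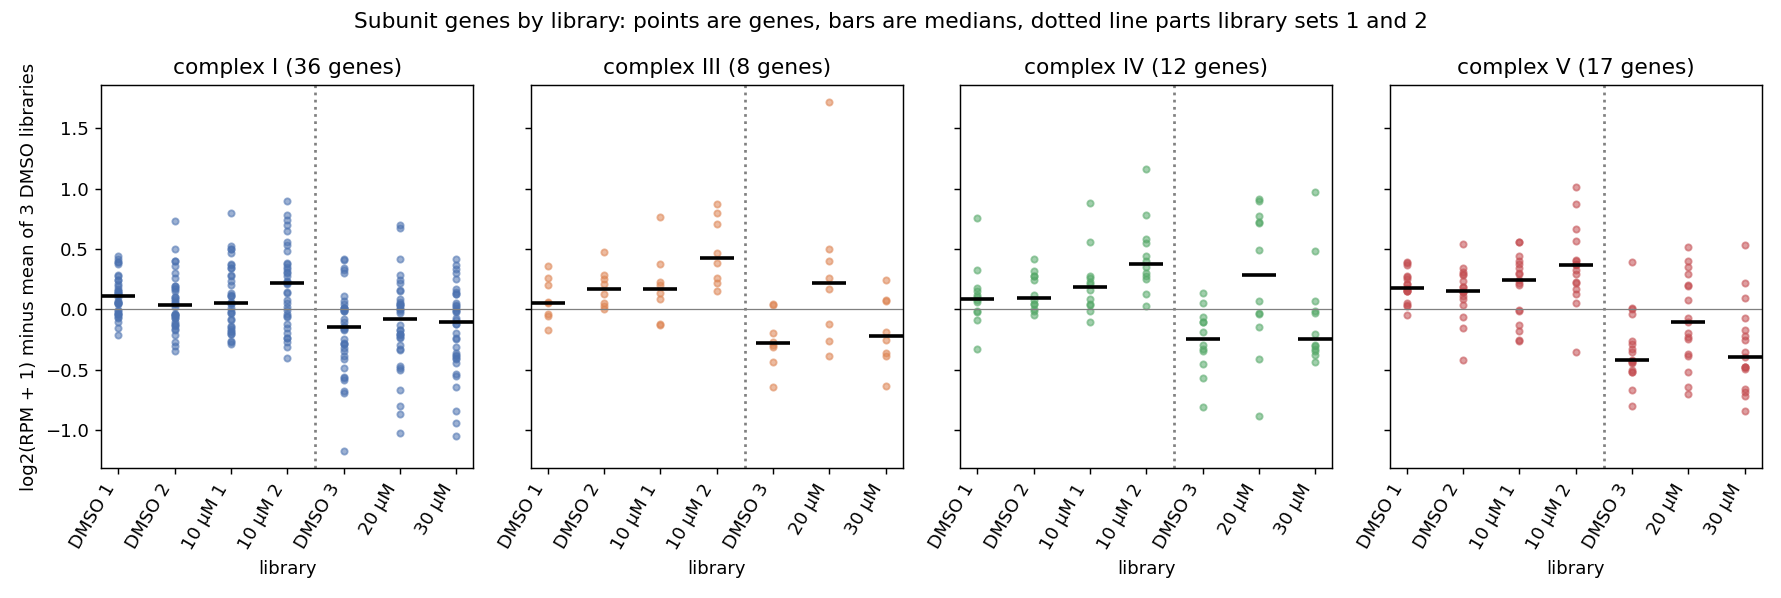
Level of each tested subunit gene relative to its mean over 3 DMSO libraries, in log2(RPM + 1), by library and complex; points are genes, black bars are medians, and the dotted line parts library sets 1 and 2. The medians of DMSO replicate 3 and the 30 µM library lie below 0 in all 4 complexes, and the 20 µM medians of complexes III and IV lie above 0.

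The difference among controls alone is part of the set difference above, with 1 library in set 2, and is no separate evidence for the sets. DMSO replicate 3 was below the mean of DMSO replicates 1 and 2 by a median of 0.40 over the 73 genes. Over all genes the median was 0.18. Of the 73 genes, 55 were lower, where 8439 of the 13599 genes tested were. By complex the medians were -0.22 (I), -0.42 (III), -0.36 (IV) and -0.63 (V). With TMM factors the median was -0.24 over the 73 genes and -0.01 over all genes. Then 45 of the 73 were lower, where 6928 of the 13599 were, and the medians by complex were -0.05, -0.27, -0.20 and -0.46. The summed level of complex V was 779 and 800 RPM in DMSO replicates 1 and 2 and 549 RPM in DMSO replicate 3. That of complex III was 158, 159 and 135 RPM and that of complex IV 245, 250 and 198 RPM. The sum of complex I was 912, 904 and 909 RPM, although 25 of its 36 genes were lower in DMSO replicate 3. Abundant genes weigh most in such a sum, and Ndufs1 had 78.0, 78.0 and 121 RPM.

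These differences moved with the length of the gene. Across the 73 genes, Spearman's rho between counted length and the difference of DMSO replicate 3 from replicates 1 and 2 was 0.61, against 0.32 across all genes tested, and between length and the 10 µM difference in the pair of replicates 2 it was -0.61, against -0.45. In the pair of replicates 1 it was -0.21, against -0.03. Genes are not independent replicates and the points share their libraries, so these are descriptions. The 24 genes under 5 kb had a median of -0.65 in DMSO replicate 3, against -0.63 for all 1374 genes of that length, and the 21 genes of 10 kb or more had 0.00, against -0.09 for all 10546. In the pair of replicates 2, the 24 short genes had a median of 0.37 at 10 µM, against 0.29 for all genes of that length, and the 21 long ones 0.03, against 0.02. At 20 µM against DMSO replicate 3, the medians under 5 kb and at 5 to 10 kb were 0.36 and 0.19. For all genes of those lengths they were 0.07 and -0.04. At 10 kb or more the 20 µM median was -0.10, against -0.12. The part of length in the paired calls was not tested, and the counted lengths of Cox5b, Cox7c and Atp5b were 1.90, 2.00 and 7.08 kb.

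**Figure D5:**
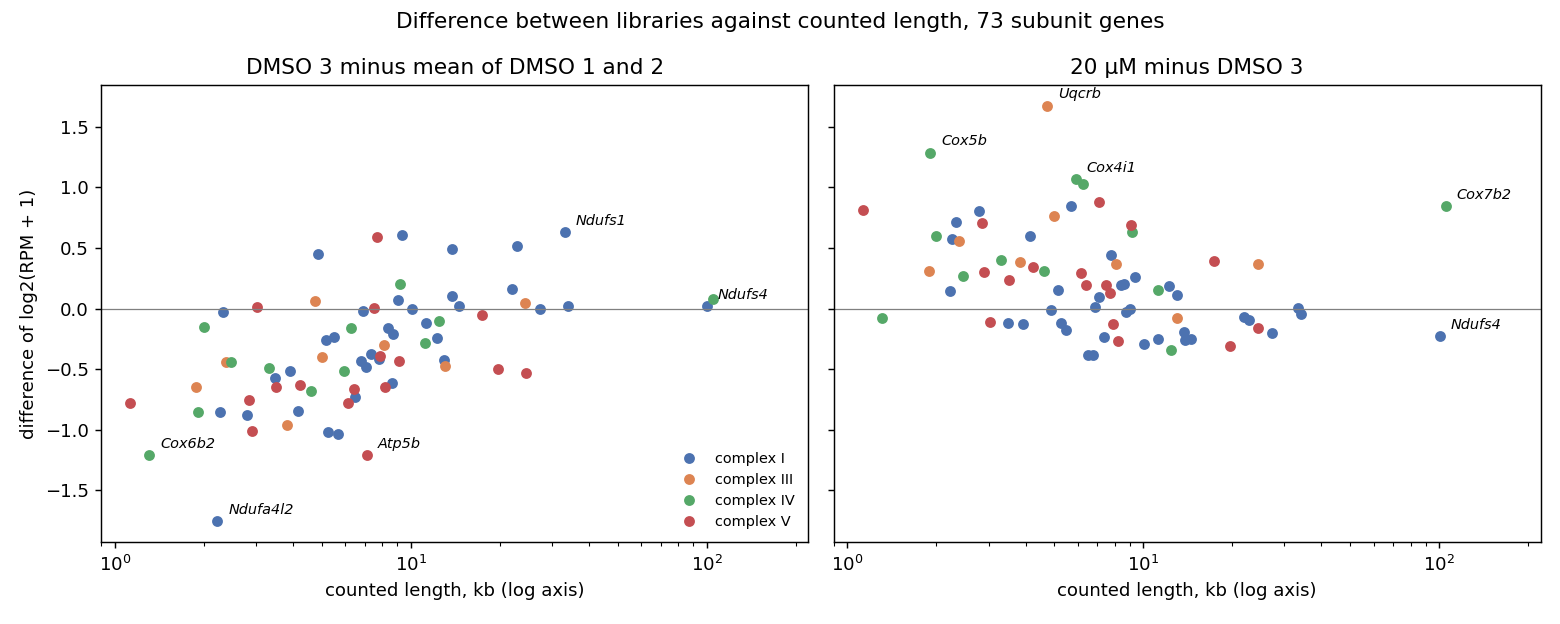
Difference in log2(RPM + 1) against counted length in kb (log axis) for 73 subunit genes coloured by complex, for DMSO replicate 3 against DMSO replicates 1 and 2 (left) and for 20 µM against DMSO replicate 3 (right). Short genes lie lower on the left, with Spearman's rho of 0.61, and higher on the right, with a rho of -0.43. Over all genes tested the values were 0.32 and -0.14, and for the 73 genes at 30 µM against DMSO replicate 3 the rho was 0.02. DMSO replicate 3 enters the 2 panels with opposite sign, so their rho values are not independent.

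The single libraries at 20 µM and 30 µM were set against DMSO replicate 3, the control of the same library set, and have no replicate check. At 30 µM the median of the 73 genes was 0.04, as over all genes (0.04), and 2 genes were at least 1.5-fold higher on the scale of RPM + 1, where 5.29% of all genes were, and none was as much lower, where 2.6% were. The former were Cox7b2 at 1.94-fold (exact interval 1.71 to 2.22) and Atp5k at 1.86-fold (1.22 to 2.90). At 20 µM the median was 0.19, against -0.10 over all genes, with 45 of the 73 higher, where 38.3% of all genes were. At least 1.5-fold higher on that scale were 16 genes (21.9%), where 5.63% of all genes were, and no gene of the 73 was as much lower, where 7.25% were. Complex IV had 6 of these 16 genes among its 12, and its median was 0.50. The medians were 0.38 in complex III, 0.23 in complex V and -0.02 in complex I. With TMM factors that of complex I changed sign to 0.09, those of complexes III, IV and V were 0.50, 0.62 and 0.35, and 54 of the 73 genes were higher, where 52.2% of all genes were.

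Uqcrb had the largest 20 µM value. It was at 13.6, 16.9 and 15.9 RPM in DMSO, 14.0 and 20.4 RPM at 10 µM, 52.9 RPM at 20 µM (95% Wilson interval 48.4 to 57.8) and 16.3 RPM at 30 µM (14.7 to 18.0), so that 1 library was 3.33-fold (exact interval 2.90 to 3.84) above DMSO replicate 3 and all others lay together. Of its transcript, 62.8% is shared at 95% identity or more with 3 pseudogenes. Only uniquely placed read pairs were counted, so pairs that fit a copy equally well were left out. The part of this in its values was not tested. Cox5b was 2.93-fold higher at 20 µM (2.08 to 4.15), Cox4i1 was 2.17-fold higher (1.85 to 2.56), and Cox6c, a complex IV subunit with 2 pseudogene copies, was 2.08-fold higher (1.83 to 2.36). At 30 µM these 3 genes were at 1.39-fold (0.997 to 1.94), 0.976-fold (0.832 to 1.14) and 1.07-fold (0.951 to 1.20). The 2 genes at least 1.5-fold higher at 30 µM, Atp5k and Cox7b2, were 2.24-fold (1.35 to 3.73) and 1.85-fold (1.57 to 2.18) at 20 µM. These genes were picked for their values in the same single libraries, which share 1 control. The intervals cover counting error only, so no difference between the 2 doses is read from them. The part of the unusual composition of the 20 µM library was not tested. Across the set, 77 of the 78 genes had a GENCODE coding transcript to compare, all but Atp5sl. Of these, 19 share at least 100 bases at that identity with a pseudogene transcript.

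Other genes of the pathway were taken from fixed lists. None of them was called by limma in the dose trend or in the unpaired 10 µM comparison. In the paired 10 µM fit, 3 of 35 tested assembly factors rose, where 4.13% of all genes did. They were Foxred1, a complex I assembly factor, by 0.37 ± 0.10 (SE, limma adjusted p = 0.00470), with 37.0 and 39.6 RPM in DMSO and 48.0 and 51.5 RPM at 10 µM, Nubpl, which delivers iron-sulfur clusters to complex I, by 0.21 ± 0.07 (SE, limma adjusted p = 0.0237), and Coa5, a complex IV assembly factor, by 0.32 ± 0.11 (SE, limma adjusted p = 0.0468). None of the 4 complex II genes, the 2 cytochrome genes, the 11 tested regulators or the 3 other ATP synthase genes was called in it. All 4 complex II genes and both cytochrome genes (Cycs and Cyc1) were lower in set 2 without overlap, where 39.8% of all genes were. With TMM factors this held for 3 of the 4 and 2 of the 2, against 29.2% of all genes. The other lists were mixed. Of the 35 tested assembly factors, 13 were lower and 4 higher in set 2 without overlap, where 39.8% and 18.7% of all genes were. With TMM factors 9 were lower and 10 higher, where 29.2% and 30.1% of all genes were. In plain RPM, 1 of the 3 other ATP synthase genes was lower and 1 higher, and of the 3 X-linked subunits 1 was lower. For these 2 lists the shares of all genes were also 39.8% and 18.7%. Of the 11 tested regulators, 2 (Nrf1 and Pprc1) were higher in set 2 without overlap, where 18.7% of all genes were, and 3 (Gabpb1, Tfam and Polrmt) were lower, where 39.8% were. With TMM factors the counts were also 2 and 3. Nrf1 had 317 to 368 RPM in set 1 and 410 to 517 RPM in set 2, whereas Gabpb1, a subunit of GABP, had 134 to 164 RPM in set 1 and 91.4 to 103 RPM in set 2. Gabpa, the DNA-binding subunit of GABP, had 168 to 247 RPM and Yy1 had 225 to 281 RPM, both with overlap.

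The X-linked subunits Ndufa1, Ndufb11 and Cox7b, which lie outside the 78 genes, were not called in any of the 4 fits. The allelic ratio Xi/(Xi + Xa) was given for 2 of them, and the reads behind it are unknown. For Cox7b it was 0.329, 0.336 and 0.240 in DMSO, 0.354 and 0.359 at 10 µM, and 0.248 and 0.235 in the 20 µM and 30 µM libraries, so that the low values were those of library set 2. The median over all 386 X-linked genes with a ratio was also lower in set 2, and it was lower with the inhibitor within each set. In set 1 it was 0.313 and 0.307 in DMSO replicates 1 and 2 and 0.288 and 0.292 at 10 µM. In set 2 it was 0.269 in DMSO replicate 3, 0.216 at 20 µM and 0.204 at 30 µM. For Ndufb11 the ratio lay between 0.392 and 0.559, with no such split.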

How the data were processed

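ChrRNA-seq libraries of C7H8 mES cells were used, 3 with DMSO, 2 with 10 µM STM2457 and 1 each with 20 µM and 30 µM. Reads from rRNA were taken out by the authors (bowtie2), and STAR placed the remaining ones on mm10 with the strain SNPs masked. Uniquely placed read pairs on the gene's strand, in exons or introns, were counted by the authors with featureCounts and scaled with edgeR to the RPM that were deposited. The authors split reads by allele and deposited the allelic ratio of X-linked genes as a fraction, used here as given. Whole read pairs were recovered from the RPM steps for 100% of values (to within 0.1 of a read pair). Depth was 9300549 to 28030180 read pairs, so that 1 read pair was worth 0.0357 to 0.108 RPM. The study describes repeats of a single clone as independent, so p-values measure the spread between repeats of 1 clone.

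Genes that averaged 1 RPM or more were tested with limma 3.58.1 (trend) on log2(RPM + 1), which understates changes at low levels, and called at a p under 0.05 after Benjamini-Hochberg adjustment over all 13599. Replicates 1 and 2 of DMSO and 10 µM were taken as pairs, since the study states that the wells of a biological replicate came from the same batch of cells; their deviations correlated (r = 0.62 over 13599 genes). The dose was fitted per 10 µM, with a library set term as an alternative. Alternatives were edgeR 4.0.16 and DESeq2 1.42.0 on the read pairs, TMM factors, a pseudocount of 0.1, a filter of 5 RPM or none, RPM without 5 genes, and leaving out each library. The fits were tested on simulated data. Shared transcript stretches (at least 100 bases at 95% identity) came from BLAST+ 2.17.0 on the GENCODE transcripts of mm10. The table held 0 mitochondrially encoded rows, so those subunits are not analysed here.

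Named genes were core, catalytic and other subunits chosen by role, paralogue sets, the 2 highest and lowest levels per kb, the 2 steepest slopes and paired differences each way, and those called; 1 gene that the rule names is not reported here on its own. The members and lists were chosen with earlier results of these data known. Library sets and the alternatives that combine the block or set term with another choice were set after seeing the data.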

Additional observations from a re-analysis of the deposited data

How the results depend on the processing

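At 10 µM without pairs, no subunit gene was called with another pseudocount, filter, scaling or tool, and leaving out each library in turn gave 0 throughout. With the replicate block the count was 3 (limma), 3 (edgeR), 3 (pseudocount 0.1), 2 (TMM factors) and 0 (DESeq2), out of 1020, 1026, 1023, 864 and 152 of all genes, so the 3 calls rest on the choice of tool as well as on the pairing. The main unpaired count over all genes was 0, against 1 with DESeq2 and 1 without DMSO replicate 3. The median at 10 µM stayed above 0 in every alternative run, from 0.10 to 0.32, and between 0.12 and 0.32 when libraries were left out. In the dose trend the count was 0 in each alternative but 1: without DMSO replicate 3 it was 6, and the count when libraries were left out thus ran from 0 to 6. The median slope was between -0.08 and 0.03 when libraries were left out, and positive without the 30 µM library and with the library set term (0.04). The slope of Ndufa4l2 turned positive with the set term, at 0.11 (limma), 0.53 (edgeR), 0.11 (TMM factors) and 0.11 (20 µM library left out); the cause was not tested. With TMM factors, 17 genes were lower and 16 higher in library set 2, in place of 33 and 8, and 9 in place of 5 were lower at 10 µM in both pairs. The 20 µM median was 0.19, and 0.31 with TMM factors and 0.30 without the 5 genes; the 30 µM median was 0.04, and -0.01 with TMM factors. Of the other genes named, the replicate block also added the calls of Foxred1, Nubpl, Coa5 and Fn1, and it was fitted only at 10 µM. Depth limits genes near 1 RPM most, above all at 20 µM.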
